A study of Homo sapiens with 5 samples.

Results

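The 9 genes described here, HLA-B, HLA-C, HLA-E, B2M, TAP1, TAP2, PSMB8, PSMB9 and NLRC5, act in the presentation of peptides by MHC class I molecules. Their H3K27ac peaks were taken as those with a centre within 5 kb of an annotated transcription start site (TSS) in GENCODE release 44. This gave 8 of the 20087 peaks in the authors' deposited table, for 8 of the 9 genes. TAP1 and PSMB9 shared 1 peak, NLRC5 had 2, and PSMB8 had none. The assay was ChIP-seq for H3K27ac, a histone acetylation found at promoters and enhancers in use, in the human colorectal carcinoma line HCT116.

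All cells were of the derivative HCT116 CMV-osTIR1 RAD21-mAC, in which the cohesin subunit RAD21 carries a degron tag and the auxin receptor osTIR1 is driven by the CMV promoter. Every H3K27ac library came from cells kept in 0.1% DMSO for 6 h. The IFN-β group (2 libraries) then received 1000 unit/ml IFN-β for 1 h, and the control group (2 libraries) received nothing further. The titles place the control libraries at the start of that hour, so the treatment and 1 h of culture cannot be told apart. Whether replicates came from separate cultures was not given in the sources used here. The signal values are group means with no value per library, so no SD between replicates and no test between groups could be computed from them. The authors' own comparison of the groups was not used.

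MHC class I molecules are heavy chains such as HLA-B, HLA-C and HLA-E paired with the light chain β2-microglobulin, the product of B2M. Peptides are cut by the proteasome, in which the interferon-inducible catalytic subunits PSMB8 and PSMB9 can replace constitutive ones, and are carried into the endoplasmic reticulum by the transporter TAP1-TAP2. NLRC5 is the transactivator of class I promoters, and type I interferon acts on many of these genes through STAT2 and IRF9, which act together at the interferon-sensitive response element (ISRE).

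The promoter sequences below are shown for their matches to the ISRE. For HLA-B and HLA-C the match is the closest one on the gene's strand within a 50-base stretch. That stretch was placed around the position of the core in the HLA-F promoter, so it need not hold the closest match at either gene. PSMB9 has a listed promoter without an exact core, which is not shown. The ISRE core was searched as 2 copies of TTTC with 2 free bases between them, on both strands, and an exact core stands in 4 of the 7 listed promoters of these genes in the RefSeq promoter table (GRCh38.p14, from 250 bases before to 50 after each start). The same holds for 1195 of 27305 genes in that table (4.38%). Among related lists described further below, it holds for 3 of 5 other proteasome and activator genes. It also holds for 3 of 8 listed genes of peptide loading and trimming and for 1 of 7 other class I heavy chains. HLA-E and NLRC5 have no entry. Capitals mark the core or overlapping cores, and all sequences run 5′ to 3′ on the strand of the gene.
TAP1: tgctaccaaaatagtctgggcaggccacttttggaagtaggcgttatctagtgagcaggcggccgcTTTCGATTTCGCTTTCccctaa
B2M: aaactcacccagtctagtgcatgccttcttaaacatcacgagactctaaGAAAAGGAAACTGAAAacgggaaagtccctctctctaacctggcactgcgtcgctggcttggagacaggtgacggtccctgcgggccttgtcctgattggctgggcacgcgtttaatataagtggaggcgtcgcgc
TAP2: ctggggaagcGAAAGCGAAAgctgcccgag
PSMB8: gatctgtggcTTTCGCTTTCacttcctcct
HLA-B: ctcccctgagTTTCACTTCTtctcccaact
HLA-C: ctcccctgagTTTCACTTCTcccaacctgc
The TAP1 stretch lies at chr6:32853817-32853904 on the minus strand and holds 2 overlapping cores. The B2M stretch lies at chr15:44711324-44711508 on the plus strand and also holds 2 overlapping cores, in the other orientation. TAP2 (chr6:32838778-32838807) and PSMB8 (chr6:32844032-32844061), both on the minus strand, hold 1 exact core each. At HLA-B (chr6:31357315-31357344, minus strand) and HLA-C (chr6:31272224-31272253, minus strand) the marked stretch differs from the core at 2 of its 8 fixed bases. A match that loose is common, being found in 17.7% of the 35116 promoter entries in the same 50-base stretch. A match is a description of the letters and not evidence of binding.

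Across the whole table the IFN-β values sat lower. The median difference, IFN-β minus control on the log2 scale of normalized reads, was -0.69, with quartiles of -0.92 and -0.43, and only 5.93% of peaks had a difference above 0. Summed over all peaks, the mean normalized reads were 876825 in the control group and 540427 in the IFN-β group. The cause of this offset was not tested, so each difference below is also given relative to the table median. The labels' carcinoma cells were checked by markers. Peaks were found at 6 of 8 epithelial genes, EPCAM and KRT19 among them and VIL1 and LGALS4 not, at 0 of 7 leukocyte genes, at 1 of 5 fibroblast genes (COL1A1) and at 1 of 4 endothelial genes (CDH5, 3504 bp from its TSS). In all, 12403 protein-coding genes had a peak in range, but their share of all protein-coding genes was not computed. The counts of genes with a peak, here and in the lists below, therefore have no such share beside them and do not by themselves set the cell type. The 6 epithelial genes had a median difference of -0.79. COL1A1 had -0.36, and CDH5, with a low control log2 signal of 2.44, had 0.56 (-0.66 to 1.79 as a 95% interval for counting error), higher than 98.8% of all peaks. The part of other cell types in the class I values was not tested.

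The class I peaks lay high among all differences. Of the 8 peaks, 5 had a higher mean in the IFN-β group, against 5.93% of all peaks. All 8 lay above the table median, which by definition splits all peaks about evenly. The peaks of TAP2 and the NLRC5 promoter, 2 of 8, lay more than 1 log2 unit above that median, against 2.44% of all peaks. The median difference of the 8 peaks was 0.04, which is 0.73 above the median of all peaks. Summed over the 8 peaks, mean normalized reads were 282 in the control group and 288 in the IFN-β group, a log2 ratio of 0.03 with a 95% counting interval of -0.14 to 0.20. Counting intervals here are exact (Clopper-Pearson), take the normalized reads of both libraries as reads, and cover counting error only, not the spread between replicates. Over genes, taking the nearest peak of each, 6 of 8 had a difference above 0, against 2.37% of 12403 protein-coding genes with a peak. The shared peak of TAP1 and PSMB9 counts for both genes here.

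**Figure D1:**
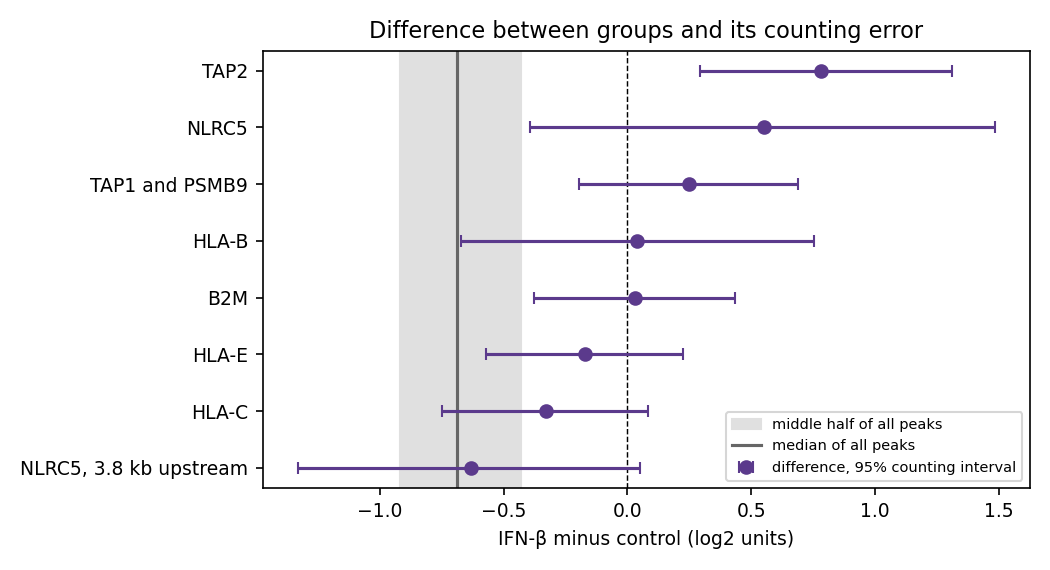
Difference between the IFN-β and control means (log2 units, horizontal axis) at each class I presentation peak, with bars for the 95% counting interval, a grey band for the middle of all peaks between the quartiles and a line at their median of -0.69. The points run from -0.63 at the distal NLRC5 peak to 0.78 at TAP2, and 6 of 8 bars lie wholly above the table median. The share of all peaks with such a bar was not computed.

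The transporter genes are TAP1 and TAP2, whose products form the peptide channel. The TAP2 peak (ENSG00000204267.19, chr6:32838130-32839130), in an intron of TAP2 with its centre 52 bp from a TSS, had a log2 signal of 4.74 in the control group and 5.52 in the IFN-β group. Its difference of 0.78 (95% counting interval 0.29 to 1.31) corresponded to a 1.72-fold higher mean, 26.7 against 45.9 normalized reads. This was the highest of the 8, above 99.4% of all peaks, and the only one whose counting interval lay above 0. The share of all peaks with a counting interval above 0 was not computed.

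The TAP1 peak (ENSG00000168394.13, chr6:32853216-32854216) is also the nearest peak of PSMB9 (ENSG00000240065.8), the interferon-inducible subunit that replaces PSMB6. Its centre stood 1 bp from a TAP1 TSS and 432 bp from a PSMB9 TSS, and the canonical starts of these divergent genes lie at 32853704 and 32854192. The log2 signal was 5.34 in the control group and 5.59 in the IFN-β group, a difference of 0.25 (95% counting interval -0.20 to 0.69), above 97.1% of all peaks. As 1 peak covers both starts, the signal cannot be divided between TAP1 and PSMB9.

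PSMB8, the inducible counterpart of PSMB5, had no peak in range. The nearest peak centre lay 5305 bp from a PSMB8 TSS and belonged to TAP2, so no value is given for PSMB8, although an exact ISRE core spans its listed start. An absent peak means that none was called there in the table, not that acetylation was absent.

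NLRC5 (ENSG00000140853.17) had the weakest promoter signal of the set. At its promoter peak (chr16:56989121-56990121, centre 27 bp from a TSS) the log2 signal was 3.15 in the control group and 3.70 in the IFN-β group, or 8.88 and 13.0 normalized reads. The difference was 0.55 with a wide counting interval of -0.39 to 1.48. Only 8.11% of all peaks had a lower control signal. The second NLRC5 peak (chr16:56985185-56986185), upstream and 3800 bp from the nearest TSS, had a difference close to the table median. Its log2 signal was 4.57 in the control group and 3.94 in the IFN-β group, a difference of -0.63 (95% counting interval -1.33 to 0.05).

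B2M (ENSG00000166710.23), the light chain shared by all class I molecules, had nearly equal means. Its peak (chr15:44711140-44712140) held a log2 signal of 5.68 in the control group and 5.71 in the IFN-β group, a difference of 0.03 (95% counting interval -0.38 to 0.43). Relative to the table median this was 0.72 higher.

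The heavy chains bind the peptide and display it at the cell surface. HLA-B (ENSG00000234745.14, chr6:31356448-31357448) had 4.13 in the control group and 4.17 in the IFN-β group, a log2 difference of 0.04 (95% counting interval -0.67 to 0.75). HLA-E (ENSG00000204592.9, chr6:30489143-30490143), whose product binds peptides from other class I leader sequences, had 5.84 and 5.67, a difference of -0.17 (-0.57 to 0.22). HLA-C (ENSG00000204525.18, chr6:31271362-31272362), a ligand of killer-cell receptors, had 5.81 and 5.48, a difference of -0.33 (-0.75 to 0.08). These 3 promoters share sequence with other loci: 15.2% of 31-base words in the HLA-B peak, 12.1% in HLA-E and 16.9% in HLA-C occur more than once in the reference, against 0% in the other member peaks. Reads from such words can be placed at the wrong gene or lost, and the effect on these values was not tested.

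**Figure D2:**
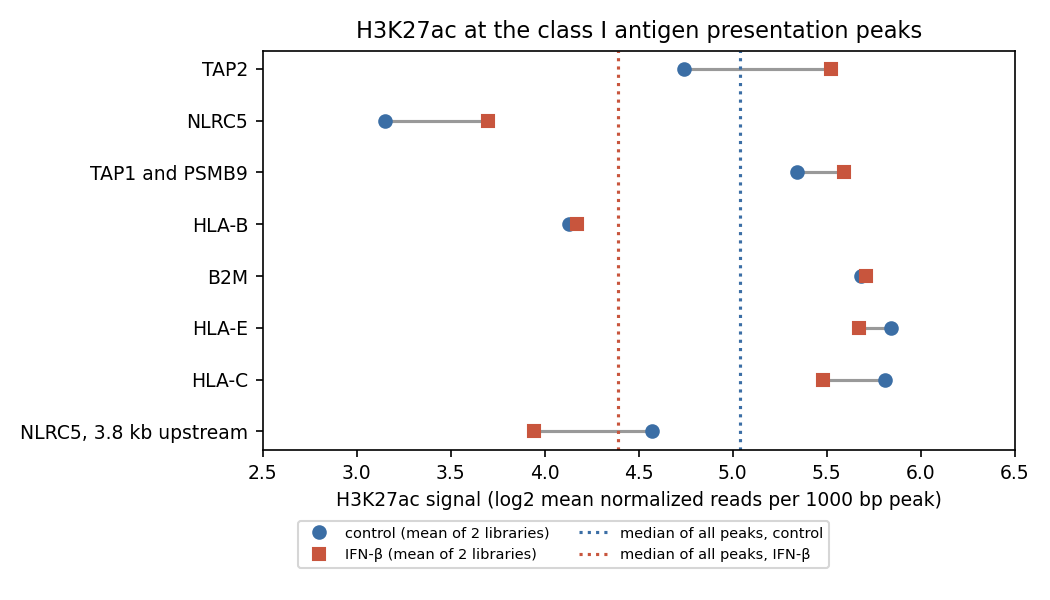
H3K27ac level (log2 of mean normalized reads per 1000 bp peak, horizontal axis) in the control group (circles) and the IFN-β group (squares) at each peak, each a mean of 2 libraries, with dotted lines at the medians of all peaks (5.04 and 4.39). The squares lie to the right of the circles at TAP2, NLRC5, TAP1 and PSMB9, HLA-B and B2M.

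All 8 peaks are 1000 bp wide, so their levels can be compared per length. In the control group the order ran from HLA-E with 57.3 mean normalized reads through HLA-C (56.1), B2M (51.3), TAP1 and PSMB9 (40.5), TAP2 (26.7), the distal NLRC5 peak (23.8) and HLA-B (17.5) to the NLRC5 promoter (8.88). The exact Poisson 95% intervals of HLA-E (47.5 to 69.0), HLA-C (46.1 to 67.4) and B2M (42.0 to 62.5) overlapped, as did those of every pair of neighbours in this order. Those of TAP1 and PSMB9 (32.2 to 50.3) and of HLA-B (12.2 to 24.3) did not overlap. These intervals, too, cover counting error only. In the IFN-β group 5 peaks came within a narrow span, from 44.6 at HLA-C to 52.3 at B2M, and TAP2 stood at 45.9. HLA-B (18.0), the distal NLRC5 peak (15.3) and the NLRC5 promoter (13.0) stood below them.

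Of the 16 other peaks within 100 kb of the class I genes, 2 (12.5%) had a difference above 0, against 5.93% of all peaks. Of the same 16, 13 lay above the table median, which by definition splits all peaks about evenly. Within 100 kb of TAP1, TAP2 and PSMB9 the other 2 peaks had differences of -0.68 and -0.63, the nearer one 7.985 kb from the TAP1 start. The 2 other peaks around NLRC5 ran from -0.79 to -0.71. Around B2M the 3 other peaks ran from -0.59 to 0.33 and around HLA-C from -0.28 to 0.19, with 1 above 0 at each. The 3 around HLA-C all lay above its own promoter peak (-0.33). They ran around HLA-E from -0.71 to -0.14 and around HLA-B from -0.46 to -0.36.

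**Figure D3:**
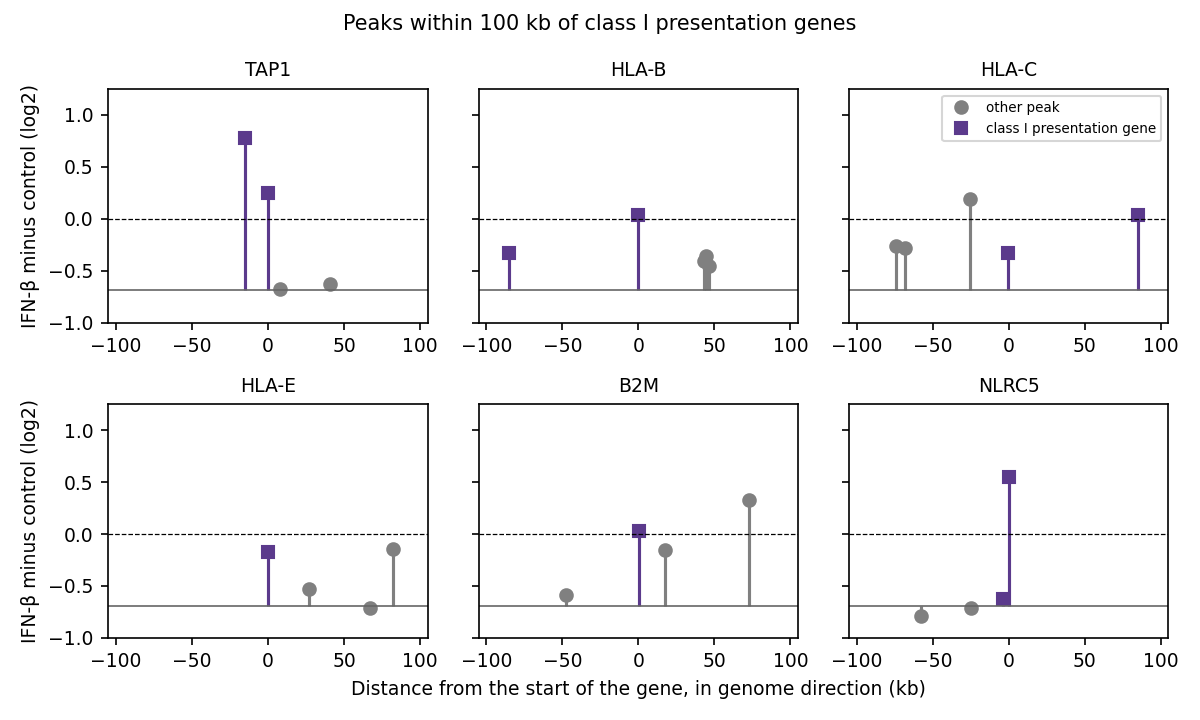
Difference between the IFN-β and control means (log2, vertical axis) of all peaks within 100 kb of 6 class I genes, by distance in genome direction (kb, horizontal axis), with squares for class I presentation peaks, circles for other peaks and a solid line at the table median. In the TAP1 panel the squares at 0.78 and 0.25 stand above the circles at -0.68 and -0.63.

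Motifs were searched within 500 bp of each peak's centre in GRCh38, on both strands. An exact ISRE core was found in 6 of the 8 peaks, against 11.6% of all peaks. Over all peaks the median difference was -0.58 with an exact core and -0.70 without. With at most 1 base changed, a form in 69.5% of all peaks, the medians were -0.65 with a match and -0.77 without. Peaks were not matched for GC content here, and whether the ISRE accounts for either split was not tested. The cores lay 54 bp before the canonical start at TAP2, at 124 and 130 bp before it at TAP1, at 134 and 140 bp before it at B2M and at the start itself at NLRC5. Those of HLA-B and HLA-C lay inside an exon, 652 and 658 bp after the start. HLA-E had no exact core, but 3 matches with 1 base changed, a form present in 69.5% of all peaks.

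CCAAT, the letters bound by NF-Y, stood in 7 of 8 peaks and in 61.8% of all peaks, and at HLA-B, HLA-C and HLA-E a copy on the gene's strand lay 54, 54 and 55 bp before the start. The gamma-activated site TTCNNNGAA was found in 1 of 8 peaks, the distal NLRC5 peak, against 21.8% of all peaks. The kappa B site GGGANTTCC (5.25% of all peaks) and the CRE TGACGTCA (2.79%) were found in 0 of 8. Over all peaks, the median differences with and without a match were -0.63 and -0.71 for the gamma-activated site and -0.68 and -0.71 for CCAAT. They were -0.68 and -0.69 for the kappa B site and -0.70 and -0.69 for the CRE.

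**Figure D4:**
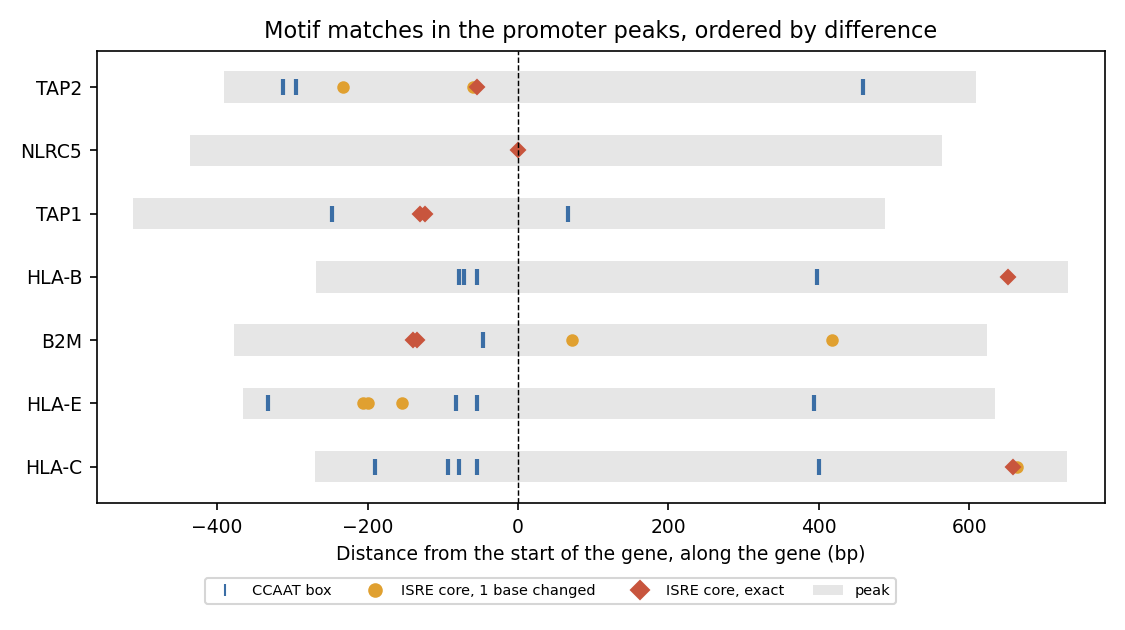
Matches to the ISRE core (diamonds exact, circles with 1 base changed) and CCAAT boxes (ticks) along the promoter peaks (grey bars), by distance from the canonical start along the gene (bp, horizontal axis), ordered by difference from TAP2 to HLA-C. Exact cores lie within 140 bp before the start or at it in TAP2, NLRC5, TAP1 and B2M, and only inside the gene in HLA-B and HLA-C.

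Among the other genes of class I presentation and its promoters, those above 0 were MR1 and IRF1. Of 7 further class I or class I-like heavy chains, 5 had a peak, with a median difference of -0.40, and 1 lay above 0, MR1, which presents microbial metabolites (0.51, 95% counting interval -0.25 to 1.32). HLA-F, chosen after its values were seen, had a difference of -0.04 (-0.79 to 0.70). Unlike HLA-B and HLA-C, it has an exact ISRE core in its listed promoter, at chr6:29723268-29723297 on the plus strand.
HLA-F: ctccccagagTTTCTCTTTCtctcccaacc

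Of 9 genes of peptide loading and trimming, 8 had a peak, 0 lay above 0 and the median was -0.55, from -1.15 at the chaperone CALR to -0.24 at the aminopeptidase ERAP1. Of 5 other proteasome and activator genes, 5 had a peak and 0 lay above 0, with a median of -0.73, from -1.25 at PSMB10 to -0.48 at the activator subunit PSME2. PSMB10, the inducible subunit that replaces PSMB7, had 6.10 in the control group and 4.85 in the IFN-β group (95% counting interval of the difference -1.71 to -0.79). The PSMB10 peak holds no exact core, and its centre lay 659 bp after the canonical start. Exact cores stood in 3 of the 11 loading and trimming peaks and in 2 of the 7 other proteasome and activator peaks, against 11.6% of all peaks. In both lists 0 peaks lay above 0, with or without a core, against 5.93% of all peaks. The listed promoter of PSMB10, outside that peak, holds an exact core (chr16:67936852-67936881, minus strand) with the same capitals as that of TAP2.
PSMB10: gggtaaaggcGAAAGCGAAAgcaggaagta
The constitutive subunits PSMB5, PSMB6 and PSMB7 had differences of -0.81, -0.76 and -0.76.

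Of 10 factors of class I and class II promoters, 10 had a peak, with a median of -0.63, and the 1 above 0 was IRF1 (0.16, 95% counting interval -0.24 to 0.56), an interferon-induced activator. Of 9 class II presentation genes, 2 had a peak in range, neither at the canonical start. The CIITA peak (-0.69) lay in a CIITA exon 65365 bp after that start, and the peak assigned to HLA-DMA (-0.91) lay in an exon of BRD2. STAT2 and IRF9 lay above 0, with differences of 0.46 and 1.29. An exact ISRE core stood in 0 of their 2 peaks and in 4 of the 4 IFIT peaks, against 11.6% of all peaks. The 4 IFIT genes, antiviral genes with ISREs, were also above 0, with 0.05 at IFIT3, 0.06 at IFIT2, 0.39 at IFIT5 and 1.59 at IFIT1. The class I median over genes, 0.15, in which the shared peak of TAP1 and PSMB9 counts for both, lay below that of the IFIT genes (0.23). This difference between lists was not tested.

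**Figure D5:**
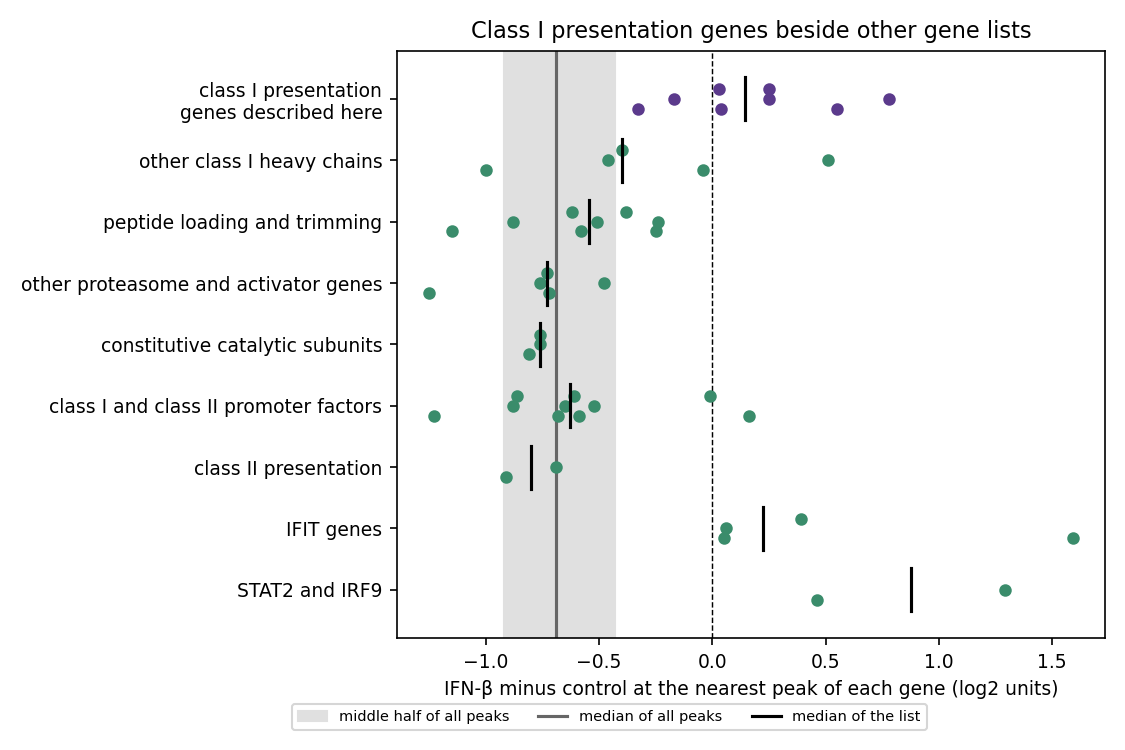
Difference between the IFN-β and control means (log2 units, horizontal axis) at the nearest peak of each gene, by gene list, with a black bar at each list's median, a grey band between the quartiles of all peaks and a line at their median. The class I presentation genes run from -0.33 to 0.78, and the constitutive catalytic subunits from -0.81 to -0.76.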

How the data were processed

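The authors' deposited table holds, per peak, the log2 of the mean normalized reads over all H3K27ac libraries and over each group. Per the labels and the study's methods, reads (5.5 M to 8.6 M per library, and 16 M for 1 input library) were trimmed with fastp 0.19.3, aligned to GRCh38 with Bowtie2, and peaks were called per library with MACS2 and merged and normalized with DiffBind. The fold change, p-value and FDR columns hold the authors' own comparison and were not used. Because the table gives signal only as means and not per library, no test was run here.

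Peaks were assigned by distance to GENCODE release 44 starts. Reads were taken as 2 to the power of the log2 value, and intervals as exact binomial or Poisson limits at 95%. Motifs and 31-base words were read from GRCh38 with pysam 0.24.0 and samtools 1.23.1. Words were counted with numba 0.67.0, intervals computed with scipy 1.17.1, tables handled with pandas 2.3.3 and numpy 2.4.6, and figures drawn with matplotlib 3.10.9 (Python 3.11.15). HCT116's own HLA alleles may differ from the reference. The interval and motif code was tested on simulated data. Alternatives changed the distance, transcripts, overlap, added reads, signal minimum, centring, threshold and sequence window.

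All 9 members and their peaks are named. Of the other lists, genes above 0 are named, or otherwise the highest and lowest; the rest enter as counts and medians. A further 2 genes are not reported here and enter no list value. The members and lists were chosen with earlier results of these data known.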

Additional observations from a re-analysis of the deposited data

How the results depend on the processing

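The median of the class I peaks stayed between 0.60 and 0.79 under the alternatives tried. It was taken relative to all peaks, or, where values were centred, to promoter peaks or to peaks of like GC content or signal. The number of peaks was 7 at 1 kb from a TSS or with the signal minimum, 9 at 10 kb and otherwise 8. The number more than 1 log2 unit above the table median was 2 (TAP2 and the NLRC5 promoter), against 2.44% of all peaks. It was 1 with 5 reads added to each group mean, 1 with a log2 mean signal of at least 4 (the NLRC5 promoter is then left out), 3 when centred on peaks of like GC content, and 6 with a threshold of 0.5. The number above 0 became 8 when centred on promoter peaks or on peaks of like signal and 7 on peaks of like GC content, where a negative centre is subtracted and every peak moves up. The share over all peaks was not computed for the changed reads, signal minimum, centring or threshold. These counts therefore cannot be set against 2.44% or 5.93%. With 250 bp on either side of the centre, the ISRE core was found in 3 of 8 peaks, against 5.87% of all peaks. The gamma-activated site was then found in 0 of 8, against 11.1% of all peaks. The exact cores of B2M, HLA-B and HLA-C lie farther from the centre than that.

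No paired analysis was possible because the table holds group means only, and for the same reason no replicate was left out. Depth limits the NLRC5 promoter and HLA-B most, with under 20 mean normalized reads in each group.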
